A study of Mus musculus with 28 samples.

Results

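Kitl, Kit, Ifitm1 and Alpl are 4 genes by which primordial germ cells of the mouse (PGC), the cells of the embryo that give rise to eggs and sperm, have classically been recognised or kept alive. They were picked by gene symbol, through the RefSeq accession that the array files give for each probe, and they are 4 of the 38731 genes and unnamed features, with 11 of the 43289 probes, that were measured. Expression was measured on 28 single-colour Agilent arrays in 14 groups of 2 arrays. The series title concerns DNA methylation in PGC, and the arrays give gene expression in PGC and related cells. Female and male PGC of BDF1 x TgN(deGFP)18Imeg embryos were taken 10.5, 13.5 or 17.5 days after mating and are written E10.5, E13.5 and E17.5. The transgene drives green fluorescent protein from the distal enhancer of Pou5f1. Oogonia and spermatogonia, for which the labels state no age, were from the BDF1 x Tg(Mvh-Venus)1Rbrc strain, in which Venus reports the germ cell gene Ddx4. Female and male EG cells, which are pluripotent lines grown from PGC, carry a source label of 12.5 days post coitum PGC of Rb(X.2)2Ad X 129/Sv. Female ES cells were the line no5 on a 129/Sv background. Male ES cells were the line TMA5, from a hybrid between TgN (deGFP)20Imeg and MSM/Ms mice. GS cells, which are spermatogonial stem cells kept in culture, were male DBA/2 cells, and whole adult testis was from C57BL/6J. Each line is a single line, strain differs between most cell kinds outside the PGC, and the labels state neither sorting nor feeder cells, nor whether a group's replicates are different animals, pools or cultures.

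KIT is a receptor tyrosine kinase on the cell surface, and its ligand, the KIT ligand or stem cell factor encoded by Kitl, is made as a membrane-bound and as a shed form. Neighbouring somatic cells present the ligand to migrating PGC, which need it to survive, divide and move. Later in life KIT marks growing oocytes and differentiating spermatogonia, while Sertoli and granulosa cells are known sources of the ligand. Ifitm1 encodes an interferon-induced transmembrane protein of the Fragilis family, which is found on the surface of early PGC. Alpl encodes the tissue-nonspecific alkaline phosphatase, the enzyme whose staining has long been used to see PGC, EG and ES cells.

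The sequences just before a listed RefSeq transcription start of each gene are shown because the series is about DNA methylation, whose usual target is the CG dinucleotide, and because the members divide sharply by how many CG they hold there. Each is the 250 bases before a RefSeq transcription start on build GRCm38.p6, written 5′ to 3′ on the strand of the gene, with every CG in capitals. Kitl lies on the plus strand at chr10:100015571-100015820, Kit on the plus strand at chr5:75574737-75574986, Ifitm1 on the plus strand at chr7:140967826-140968075 and Alpl on the minus strand at chr4:137796385-137796634.
Kitl: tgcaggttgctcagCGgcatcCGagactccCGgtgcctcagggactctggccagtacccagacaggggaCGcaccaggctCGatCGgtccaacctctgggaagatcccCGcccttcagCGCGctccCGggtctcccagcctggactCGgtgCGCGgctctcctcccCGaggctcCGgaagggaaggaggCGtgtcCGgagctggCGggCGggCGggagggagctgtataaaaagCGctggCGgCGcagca
Kit: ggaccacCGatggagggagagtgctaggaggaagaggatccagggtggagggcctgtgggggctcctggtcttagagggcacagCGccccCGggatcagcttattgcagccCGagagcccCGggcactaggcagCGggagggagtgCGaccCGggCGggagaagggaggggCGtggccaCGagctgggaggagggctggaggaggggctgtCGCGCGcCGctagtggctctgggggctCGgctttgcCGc
Ifitm1: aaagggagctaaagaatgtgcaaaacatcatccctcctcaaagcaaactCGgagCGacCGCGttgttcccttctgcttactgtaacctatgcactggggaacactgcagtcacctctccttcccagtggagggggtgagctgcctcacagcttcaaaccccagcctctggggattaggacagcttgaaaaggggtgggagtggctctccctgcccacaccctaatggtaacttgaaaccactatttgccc
Alpl: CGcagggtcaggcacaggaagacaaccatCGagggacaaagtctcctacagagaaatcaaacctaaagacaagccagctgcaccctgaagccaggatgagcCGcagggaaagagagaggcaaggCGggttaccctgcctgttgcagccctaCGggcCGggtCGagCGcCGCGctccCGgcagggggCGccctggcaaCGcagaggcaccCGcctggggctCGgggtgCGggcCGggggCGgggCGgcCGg

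Kitl held 23 CG in this window, Alpl 20 and Kit 17, while Ifitm1 held 4. Over the 32851 promoters of 27025 genes in the same RefSeq table the median was 6 CG. Of all promoters, 86.7% had fewer CG than Kitl, 82.1% fewer than Alpl, 76.5% fewer than Kit and 37.8% fewer than Ifitm1. The GC content was 69.2% for Kitl, 68.4% for Alpl, 70.8% for Kit and 53.6% for Ifitm1. The GC box GGGCGG, searched on both strands, occurred in Kitl, with 2 copies on the strand shown and 1 on the other, in Alpl with 2 copies and in Kit with 1, and it was in 32.7% of all promoters. No copy was in the Ifitm1 window, which says only that these letters are not there. Alpl has a second listed start, whose window at chr4:137766476-137766725 held 4 CG at 56% GC, and further RefSeq transcripts of Kitl and of Ifitm1 begin upstream of the starts shown. The arrays measure transcripts and give no methylation at any of these places.

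Levels are log2 of the processed signal after subtraction of the array's 75th percentile, taken over 7227 probes well above background on every array, so that 0 is that percentile and 1 unit is a 2-fold change. Levels order the groups for 1 probe and are not compared between genes. Between 17.8% and 76.8% of probes per array were well above background, with the lowest share on an E10.5 male array and the highest on a testis array, and the correlation between both arrays of a group ran from 0.914 (GS) to 0.998 (testis). The germ cell genes Ddx4 and Dazl were well above background on every array. Those arrays include ES cells and whole testis, so these genes do not tell germ cells from the other samples. Of 10 measured germ cell genes, 8 were well above background on both E17.5 female arrays and 1 on neither. In testis 9 were on both and 1 on neither, and in each ES line all 10 were on both. In these bulk samples fewer cells of a type and less RNA per cell cannot be told apart. Each difference below is given with its standard error from 1 limma fit over all 28 arrays, and a Benjamini-Hochberg adjusted p under 0.05 was called. With only 2 arrays per group the p-values reflect how far these arrays differ, and that spread could be technical.

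**Figure D1:**
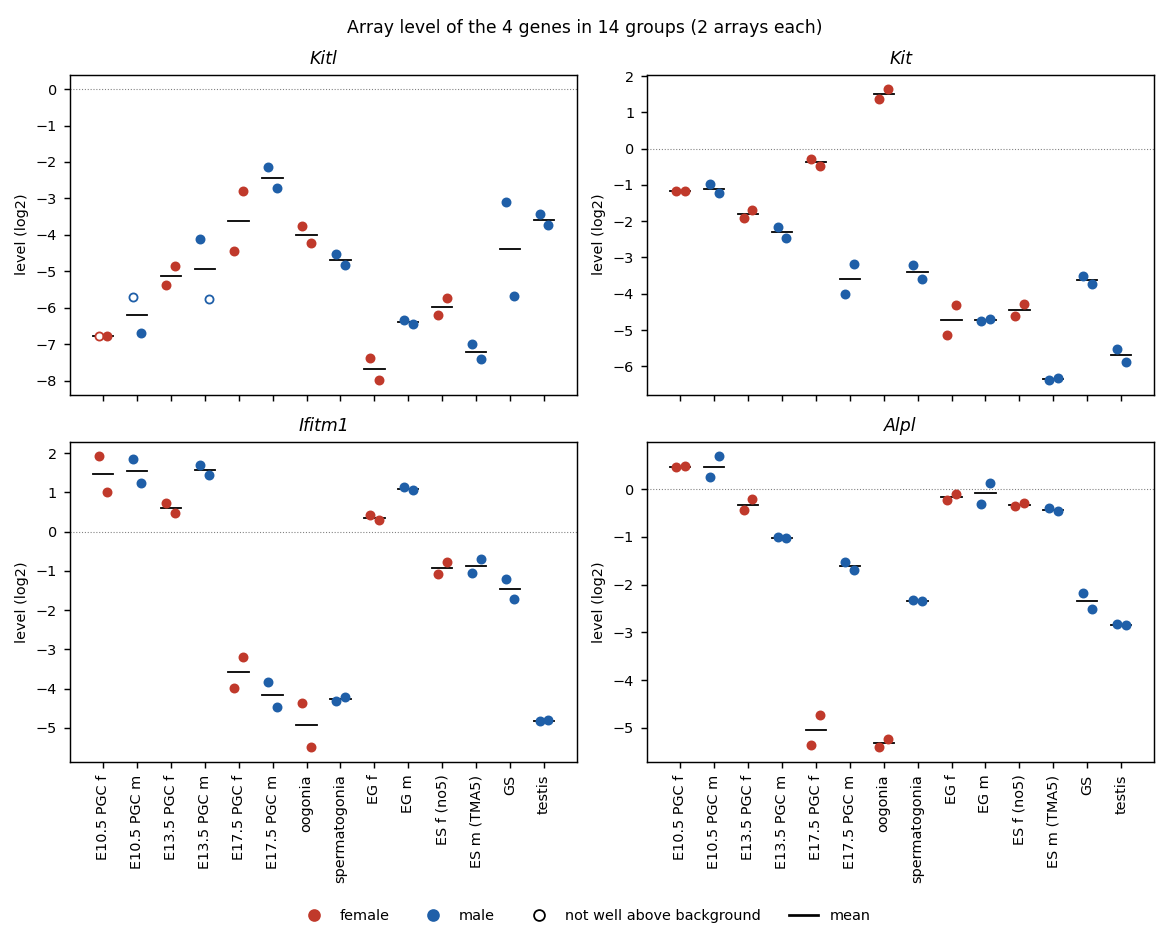
Level of each gene's kept probe (log2, relative to the array's 75th percentile; vertical axis) in the 14 groups (horizontal axis), with 1 point per array (females red, males blue) and a bar at the group mean; open points were not well above background, and each panel has its own scale. Kit is highest in oogonia at 1.51, Kitl in E17.5 males at -2.43, and Alpl is lowest in oogonia at -5.32, near E17.5 females at -5.05.

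Kitl, the ligand, was the least steady member, and it was highest in male PGC at E17.5. The E17.5 male arrays read -2.14 and -2.72, the adult testis arrays -3.44 and -3.73, and the E17.5 female arrays -4.44 and -2.81. Oogonia followed at -3.77 and -4.23, spermatogonia at -4.54 and -4.82, and GS cells at -3.11 and -5.67. The GS arrays stood farther apart than those of any other group, with an SD of 1.81. At E13.5 the females read -5.39 and -4.86 and the males -4.12 and -5.76, the last of which was not well above background. The cultured pluripotent lines and the E10.5 PGC made up the low end, with female EG lowest at -7.38 and -7.99. Female E10.5 PGC read -6.78 and -6.77 and male E10.5 PGC -5.72 and -6.7, and the first array of each sex was not well above background. Group means of Kitl spanned 5.25 log2 units, and in 9 of the 13 steps down the order the arrays of neighbouring groups overlapped, including every step from testis (mean -3.58) to female E13.5 PGC (mean -5.13). The steps without overlap were from E17.5 males to testis, from E13.5 females to female ES cells, from male EG cells to E10.5 females, and from those to male ES cells. The probe was well above background on 25 of 28 arrays.

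Kit, the receptor, spanned 7.86 log2 units in the group means of its kept probe, in a tighter order than Kitl. With that probe, though not with the other Kit probes, which put E17.5 females first, oogonia were highest at 1.38 and 1.64, followed by E17.5 females at -0.28 and -0.48. Both E10.5 sexes came next, the males at -0.98 and -1.23 and the females at -1.18 and -1.16. E13.5 females read -1.9 and -1.7 and E13.5 males -2.16 and -2.45, and no array of any of these 6 groups fell as low as the highest of the remaining groups. A middle set held spermatogonia at -3.21 and -3.59, E17.5 males at -4.01 and -3.19, and GS cells at -3.51 and -3.74. Female ES cells read -4.6 and -4.29, female EG -5.13 and -4.3, and male EG -4.74 and -4.7. Testis, at -5.52 and -5.87, and male ES cells, at -6.38 and -6.33, were lowest. Neighbours overlapped in 5 of the 13 steps, namely between the E10.5 sexes, within the middle set and among female ES and both EG groups. The probe was well above background on all 28 arrays.

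Ifitm1, the surface marker, was high in early PGC and in the pluripotent lines. It was low in E17.5 PGC, oogonia, spermatogonia and testis, with GS cells in between. E10.5 females read 1.92 and 1.02, E10.5 males 1.86 and 1.25, and E13.5 males 1.69 and 1.45. E13.5 females were lower at 0.74 and 0.47, below male EG cells at 1.13 and 1.05 and above female EG cells at 0.43 and 0.29. ES cells formed the next step down, with females at -1.07 and -0.77 and males at -1.06 and -0.71, and GS cells read -1.22 and -1.72. A gap of 2.12 between means then separated GS cells from the low end. There the E17.5 females read -3.99 and -3.19, the E17.5 males -3.84 and -4.48, and spermatogonia -4.31 and -4.22. Testis was at -4.83 and -4.8, and oogonia were at -4.38 and -5.5. Neighbours overlapped in 7 of 13 steps, and the group means spanned 6.51 log2 units.

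Alpl, the alkaline phosphatase, was highest in E10.5 PGC, with females at 0.47 and 0.48 and males at 0.26 and 0.69. EG and ES cells lay close to each other and to E13.5 females, which read -0.44 and -0.2. Male EG cells read -0.3 and 0.14, female EG -0.22 and -0.1, female ES -0.36 and -0.29 and male ES -0.4 and -0.46. From E13.5 on male germ cells held intermediate levels, with E13.5 males at -1.01 and -1.02, E17.5 males at -1.52 and -1.69, spermatogonia at -2.33 and -2.34, and GS cells at -2.17 and -2.52. Testis was at -2.83 and -2.85. Only the E17.5 females, at -5.37 and -4.73, and the oogonia, at -5.41 and -5.24, lay lower, and a gap of 2.21 between means separated them from testis. Neighbours overlapped in 6 of 13 steps, and Ifitm1 and Alpl were well above background on all 28 arrays.

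**Figure D2:**
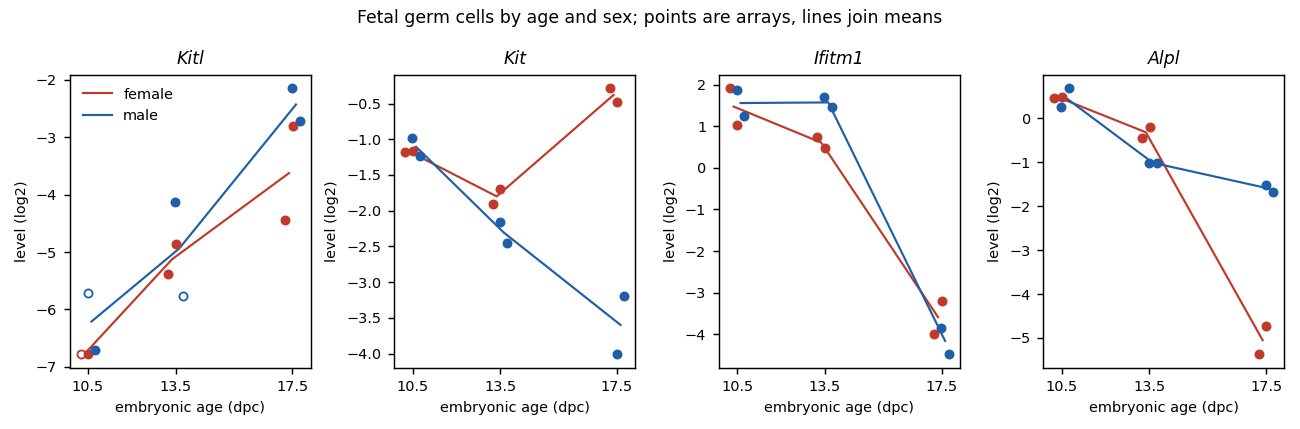
Levels (log2, vertical axis) of the 4 genes in female and male PGC at E10.5, E13.5 and E17.5 (horizontal axis); points are arrays and lines join group means, red for females and blue for males, and open points were not well above background. At E17.5 Alpl averages -5.05 in females and -1.60 in males, Kit averages -0.38 in females and -3.60 in males, and Ifitm1 is low in both sexes.

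From E10.5 to E13.5, as PGC settle in the gonad and the sexes begin to differ, Alpl fell in both sexes and Kit in males. In males Alpl fell 2.81-fold (-1.49 ± 0.21 log2 units, SE, adjusted p = 7.7e-05), and in females 1.73-fold (-0.79 ± 0.22, adjusted p = 0.00967). Kit fell in males by 1.2 ± 0.27 (adjusted p = 0.00356), or 2.3-fold, and its difference in females was -0.63 ± 0.28 (95% interval -1.22 to -0.05, adjusted p = 0.0861). Ifitm1 did not pass in females (-0.87 ± 0.37, interval -1.65 to -0.09, adjusted p = 0.078) or in males (0.02 ± 0.36, interval -0.75 to 0.78, adjusted p = 0.98). Kitl differed by 1.65 ± 0.67 in females (interval 0.24 to 3.06, adjusted p = 0.0641), and in males it was not tested, because only 1 array of each stage was well above background. Thus 1 of 4 members was called in females, where 35% of all 13596 tested genes were, and 2 of 3 in males, against 27% of 10411. The test of the difference between the sexes was not passed by the kept probe of any member (Kit -0.57 ± 0.39, adjusted p = 0.417; Kitl -0.38 ± 0.95, adjusted p = 0.861; Ifitm1 0.88 ± 0.52, adjusted p = 0.331; Alpl -0.7 ± 0.31, adjusted p = 0.185), with 6.67% of all genes called there, while the second Alpl probe did pass (-1.11 ± 0.32, adjusted p = 0.0471). Without E13.5 female replicate 1 the female Alpl difference was -0.67 (adjusted p = 0.125), and without E10.5 male replicate 1 or E13.5 male replicate 2 the male Kit difference was -1.08 (adjusted p = 0.0561) or -1.06 (adjusted p = 0.0604). The female Alpl call was also lost with slide as a block, normexp background correction, the deposited values, no filter, the mean of all probes or the compared groups alone, the male Kit call with the last 4 of these, and the male Alpl call with the deposited values or the compared groups alone.

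From E13.5 to E17.5 female germ cells enter meiosis and male germ cells stop dividing, and here the members parted. Ifitm1 fell in both sexes, 18.3-fold in females (-4.19 ± 0.37, interval -4.98 to -3.41, adjusted p = 2.87e-07) and 53.2-fold in males (-5.73 ± 0.38, interval -6.53 to -4.94, adjusted p = 2.86e-08). Alpl fell 26.5-fold in females (-4.73 ± 0.22, interval -5.19 to -4.27, adjusted p = 2.46e-10) and 1.51-fold in males (-0.59 ± 0.22, interval -1.05 to -0.13, adjusted p = 0.0349). Kit moved in opposite directions. In females it rose by 1.42 ± 0.28 (interval 0.83 to 2.01, adjusted p = 0.000729), or 2.68-fold, and in males it fell by 1.29 ± 0.28 (interval -1.89 to -0.7, adjusted p = 0.00139), or 2.45-fold. Kitl rose in males by 2.51 ± 0.68 (interval 1.07 to 3.95, adjusted p = 0.00646), or 5.69-fold, and differed by 1.5 ± 0.67 in females (interval 0.08 to 2.92, adjusted p = 0.0857). These are 3 of 4 members in females, where 40.2% of 14340 genes were called, 22.7% higher and 17.5% lower, and 4 of 4 in males, where 48.1% of 15585 were, 33.2% higher and 14.9% lower. Blood and endothelium genes, 8 of them measured, moved over the same step in both sexes. Their summed level was -1.1 and -4.42 on the E13.5 female and 4.07 and 1.55 on the E17.5 female arrays, and -0.22 and -1.79 on the E13.5 male and 2.02 and 0.45 on the E17.5 male arrays. Their part in these changes was not tested.

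Replicates 1 and 2 of all PGC groups were scanned on different days, and within each scan day the directions held. Ifitm1 differed by -4.73 and -3.66 in females and by -5.54 and -5.93 in males on the days of replicates 1 and 2. Alpl differed by -4.93 and -4.53 in females and by -0.51 and -0.67 in males. The Kit differences were 1.62 and 1.22 in females and -1.85 and -0.74 in males, and those of Kitl in males were 1.97 and 3.04. With the replicate number as a block the male Alpl fall was not called (-0.59, adjusted p = 0.0872), and it was lost on leaving out any 1 of its 4 arrays, at -0.51 to -0.68 with adjusted p between 0.0658 and 0.182. The male Kitl rise rests partly on the dim E13.5 array: without E13.5 male replicate 2 it was 1.69 (adjusted p = 0.0993), without E17.5 male replicate 1 it was 2.22 (adjusted p = 0.0534), and normexp background correction, slide as a block (3.05, adjusted p = 0.0506) and a fit on the compared groups alone also ended its call. In the deposited values the Kit changes of both sexes and the male Kitl and Alpl changes were not called, and slide as a block or the compared groups alone also ended the male Kit call.

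Whether the change from E13.5 to E17.5 differed between the sexes was tested as an interaction, male minus female. Alpl fell less in males by 4.14 ± 0.31 (interval 3.48 to 4.8, adjusted p = 1.35e-07), and the Kit change was lower in males (-2.71 ± 0.4, interval -3.56 to -1.87, adjusted p = 9.04e-05). Ifitm1 fell further in males, with a difference of -1.54 ± 0.53 (interval -2.67 to -0.41, adjusted p = 0.0361). The replicate block left that Ifitm1 difference uncalled (-1.54, adjusted p = 0.0897). Kitl did not pass (1.01 ± 0.96, interval -1.03 to 3.04, adjusted p = 0.453). Here 3 of 4 members were called, against 32.4% of 16852 genes. Each of 6 of the 8 arrays, left out in turn, ended the Ifitm1 call, with values between -1.94 and -1.14.

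Set directly against each other, the sexes did not differ in any member at E10.5, where 0.0458% of 8743 genes were called. The intervals, male minus female, were -0.5 to 0.63 for Kit, -0.67 to 0.84 for Ifitm1 and -0.44 to 0.44 for Alpl (adjusted p = 0.999 for each), so a 2-fold difference lay outside all of them, and Kitl was not tested. At E13.5 only Alpl was called, 1.62-fold lower in males (-0.69 ± 0.22, adjusted p = 0.0329), against 19.4% of 13784 genes. That call was lost with the replicate block (-0.69, adjusted p = 0.091) and on leaving out any 1 of its arrays (-0.82 to -0.57). Kit (-0.51 ± 0.28, adjusted p = 0.222), Kitl (0.19 ± 0.67, interval -1.22 to 1.6, adjusted p = 0.885) and Ifitm1 (0.97 ± 0.37, interval 0.18 to 1.75, adjusted p = 0.0771) did not pass, and for Kitl the arrays of replicate 1 and replicate 2 pointed opposite ways, at 1.27 and -0.9.

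By E17.5 the receptor and the phosphatase separated the sexes in opposite directions. Kit was 9.32-fold lower in males (-3.22 ± 0.28, interval -3.82 to -2.62, adjusted p = 1.74e-07), and Alpl was 10.9-fold higher in males (3.44 ± 0.22, interval 2.98 to 3.91, adjusted p = 6.95e-09). Neither gene's male and female arrays overlapped, and within the days of replicates 1 and 2 the differences were -3.73 and -2.71 for Kit and 3.85 and 3.04 for Alpl. Kitl (1.2 ± 0.68, interval -0.24 to 2.63, adjusted p = 0.146) and Ifitm1 (-0.57 ± 0.38, interval -1.37 to 0.22, adjusted p = 0.208) did not pass. The count of 2 of 4 compares with 54.8% of 16126 genes (32.1% higher and 22.7% lower in males), a share close to that of the members. Both calls held under every alternative tried.

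**Figure D3:**
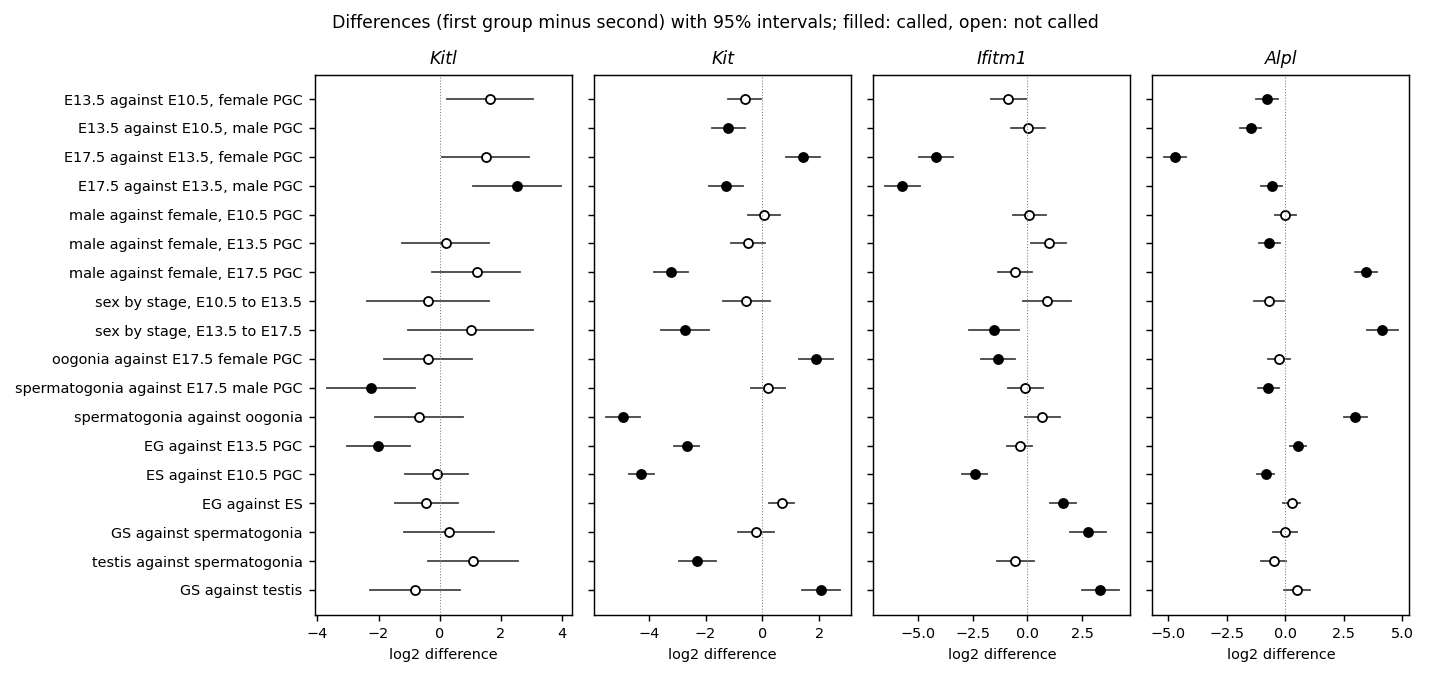
Log2 difference with its 95% interval (horizontal axis) of each gene in each comparison (rows); filled points were called at an adjusted p under 0.05, and each gene has its own scale. The falls of Ifitm1 (-4.19 and -5.73) and of female Alpl (-4.73) between E13.5 and E17.5 and the Kit difference between spermatogonia and oogonia (-4.91) lie farthest from 0 among comparisons within germ cells.

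Oogonia, like E17.5 females, had high Kit and low Ifitm1 and Alpl. Kit was 3.71-fold higher in oogonia than in E17.5 females (1.89 ± 0.28, interval 1.29 to 2.49, adjusted p = 0.000384), and Ifitm1 was 2.55-fold lower (-1.35 ± 0.38, interval -2.15 to -0.55, adjusted p = 0.0181). Alpl (-0.27 ± 0.22, interval -0.74 to 0.19, adjusted p = 0.41) and Kitl (-0.38 ± 0.68, interval -1.82 to 1.06, adjusted p = 0.74) did not pass, and 2 of 4 members compares with 22.6% of 17029 genes. The Ifitm1 call was lost without E17.5 female replicate 2 (-0.95) or without oogonia replicate 2 (-0.79), and with quantile normalization (-0.76), the percentile taken over all probes (-0.81), the deposited values (-0.54), the common floor (-0.19), no filter, the compared groups alone and slide as a random block. The Kit call depends on the probe, as described with the probes. Oogonia, spermatogonia, EG cells and ES cells each had a slide of their own, so in every comparison with them slide and group cannot be told apart, whereas GS cells and testis shared a slide.

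Spermatogonia lay close to E17.5 males in Kit (0.2 ± 0.28, interval -0.39 to 0.8, adjusted p = 0.665) and Ifitm1 (-0.1 ± 0.38, interval -0.9 to 0.7, adjusted p = 0.881), as far as those intervals reach. Kitl was 4.76-fold lower in spermatogonia (-2.25 ± 0.68, adjusted p = 0.0298) and Alpl 1.65-fold lower (-0.73 ± 0.22, adjusted p = 0.0302), while 19.6% of 16585 genes were called, 8.53% higher and 11.1% lower. Both calls were lost on leaving out any 1 of their 4 arrays, at -2.54 to -1.96 for Kitl and -0.81 to -0.64 for Alpl. Against oogonia, spermatogonia had 30-fold less Kit (-4.91 ± 0.29, interval -5.51 to -4.3, adjusted p = 2.7e-09) and 7.95-fold more Alpl (2.99 ± 0.22, interval 2.51 to 3.47, adjusted p = 3.3e-08), which is the direction of each at E17.5. Kitl (-0.68 ± 0.68, interval -2.12 to 0.77, adjusted p = 0.433) and Ifitm1 (0.68 ± 0.38, interval -0.13 to 1.48, adjusted p = 0.151) did not pass, and 50.5% of 18827 genes were called.

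In the cultured pluripotent lines the receptor was low, and the phosphatase lay within the range of the E10.5 and E13.5 PGC arrays. EG cells had 6.33-fold less Kit than E13.5 PGC (-2.66 ± 0.21, interval -3.1 to -2.23, adjusted p = 4.76e-08) and 4.01-fold less Kitl (-2.01 ± 0.49, interval -3.03 to -0.98, adjusted p = 0.003). Alpl was 1.46-fold higher in EG cells (0.55 ± 0.16, interval 0.2 to 0.89, adjusted p = 0.0127). The E13.5 female arrays overlapped those of EG cells, while both E13.5 male arrays lay below every EG array. Without E13.5 female replicate 1 or male EG replicate 2 this Alpl difference was 0.49 (adjusted p = 0.0517) or 0.44 (adjusted p = 0.0768). Ifitm1 did not pass (-0.36 ± 0.27, interval -0.94 to 0.21, adjusted p = 0.305), so 3 of 4 members were called beside 43.2% of 22062 genes, 18.5% higher and 24.7% lower. The Kitl and Alpl calls were also lost with slide as a random block and in the deposited values, that of Kitl with quantile normalization and the common floor as well, and that of Alpl with the mean of all probes (0.08). The remaining Alpl probes gave 0.36 ± 0.17 (adjusted p = 0.0959) and -0.67 ± 0.42 (adjusted p = 0.215).

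ES cells, as the mean of 2 lines, showed the largest Kit difference to PGC, 19.2-fold lower than E10.5 PGC (-4.26 ± 0.21, interval -4.7 to -3.83, adjusted p = 5.43e-10). Both lines lay below every E10.5 array, but they differed without overlap, at -4.45 (female no5) and -6.35 (male TMA5). The mean thus describes neither line, and the SE holds no spread between lines. Female ES cells lay near EG cells (-4.71 and -4.72). In ES cells Ifitm1 was 5.34-fold lower than in E10.5 PGC (-2.42 ± 0.27, interval -2.99 to -1.84, adjusted p = 3.75e-06) and Alpl 1.8-fold lower (-0.85 ± 0.16, interval -1.2 to -0.51, adjusted p = 0.000626), with Kitl not passing (-0.1 ± 0.49, interval -1.13 to 0.93, adjusted p = 0.886) and 39.6% of 21710 genes called, 16.1% higher and 23.5% lower. In the deposited values, which are centred in another way, the Alpl difference turned to 0.16, and slide as a random block also ended its call. The lines differed from each other in Ifitm1, which was 3.09-fold higher in EG than in ES cells (1.63 ± 0.27, interval 1.05 to 2.21, adjusted p = 0.00257), against 7.06% of 23229 genes called. Kit (0.68 ± 0.21, interval 0.24 to 1.12, adjusted p = 0.058), Kitl (-0.44 ± 0.49, interval -1.48 to 0.59, adjusted p = 0.655) and Alpl (0.26 ± 0.17, interval -0.09 to 0.61, adjusted p = 0.39) did not pass. With slide as a random block, which estimated a correlation of 0.62 between arrays of a slide, the Ifitm1 difference was not called (adjusted p = 1).

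GS cells, the cultured spermatogonial stem cells, differed from spermatogonia in the kept probe of Ifitm1 and of no other member. Ifitm1 was 6.92-fold higher in GS cells (2.79 ± 0.39, interval 1.96 to 3.62, adjusted p = 0.000101), with 25.5% of 26026 genes called, 12% higher and 13.5% lower. Kit (-0.23 ± 0.3, interval -0.86 to 0.41, adjusted p = 0.642), Kitl (0.29 ± 0.69, interval -1.17 to 1.76, adjusted p = 0.812) and Alpl (-0.01 ± 0.24, interval -0.52 to 0.5, adjusted p = 0.981) did not pass, although the second Alpl probe was called lower (-0.74 ± 0.25, adjusted p = 0.037). Fibroblast and mesenchyme genes moved with the Ifitm1 difference, at a summed level of 5.3 and 2.88 on the GS arrays against 1.09 and 0.99 on the spermatogonia arrays, and their part in it was not tested. Whole testis had 4.91-fold less Kit than spermatogonia (-2.3 ± 0.31, interval -2.94 to -1.65, adjusted p = 1.29e-05), beside 44.8% of 28816 genes, and 4.19-fold less than GS cells (2.07 ± 0.31 for GS minus testis, interval 1.41 to 2.72, adjusted p = 3.8e-05). GS cells also had 10.1-fold more Ifitm1 than testis (3.34 ± 0.4, interval 2.5 to 4.18, adjusted p = 3.8e-06), and 47.3% of 30301 genes were called there. Setting all levels under a common floor of -3.58 to that floor ended both testis calls of Kit, since testis lies below it (-0.18 against spermatogonia and 0.03 for GS minus testis). The remaining testis differences did not pass with the kept probes: against spermatogonia Kitl was 1.1 ± 0.69 (adjusted p = 0.221), Ifitm1 -0.55 ± 0.4 (adjusted p = 0.288) and Alpl -0.51 ± 0.25 (adjusted p = 0.112), and for GS minus testis Kitl was -0.81 ± 0.7 (adjusted p = 0.371) and Alpl 0.5 ± 0.25 (adjusted p = 0.12). The second probes of Alpl (-1.37 ± 0.25, adjusted p = 0.000288) and Ifitm1 (-0.97 ± 0.38, adjusted p = 0.0472) were called lower in testis than in spermatogonia.

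Over the 18 comparisons, several of which share arrays, 33 of the 70 member tests were called. By comparison, between 0.0458% and 54.8% of all genes tested were called. Of the 33, 12 were called under every alternative tried, a share that was not computed for other genes. Those 12 were Ifitm1 from E13.5 to E17.5 in both sexes, Alpl over the same step in females and in the interaction, Kit and Alpl between the sexes at E17.5, Kit between spermatogonia and oogonia, Kit in EG cells, Kit and Ifitm1 in ES cells, and Ifitm1 in GS cells against spermatogonia and against testis. No Kitl result was among them.

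In fetal males Kitl moved with markers of Sertoli cells, the somatic cells of the testis cords that are known to make it. Of a list of 12 Sertoli genes 11 were measured, and their summed level (log2 of summed linear levels) was 3.32 and 2.25 on the E17.5 male arrays against -2.37 and -1.54 on the E17.5 female arrays. On the E13.5 male arrays the sum was 1.25 and 0.11, and Kitl on the same arrays was -4.12 and -5.76. Each male array with the higher Sertoli sum thus also had the higher Kitl level, at E13.5 and at E17.5. The females did not show such a sum at E13.5, where it was -2.64 and -2.79. Agreement within a pair was not particular to these males. It also held in E10.5 males, E17.5 females, oogonia, spermatogonia, GS cells and testis, several of them with low Sertoli sums. The opposite order held in E10.5 and E13.5 females, female EG cells and both ES lines. In PGC the replicate number is also the scan day. Spermatogonia had sums of -0.04 and -0.05, oogonia -1.92 and -2.32, GS cells -1.67 and -2.46, and testis, which holds Sertoli cells, 3.5 and 3.47. Across groups the orders differed, since E17.5 females (mean Kitl -3.63) and oogonia (-4.00), with low Sertoli sums, had more Kitl than spermatogonia (-4.68) and E13.5 males (-4.94). At E17.5 9 of 9 tested Sertoli genes were higher in males, beside 32.1% of all genes, among them the testis gene Cst9 (at least 131-fold), Sox9, the transcription factor that directs Sertoli fate (at least 38.6-fold), and Ptgds, a prostaglandin synthase (6.69 ± 1.0 log2 units). Of the 11 measured, 9 were well above background on both E17.5 male arrays and 3 on both E17.5 female arrays. Genes thus entered that test largely through the males, where they are high, so its count was partly fixed by the filter. From E13.5 to E17.5 in males 4 of 9 tested Sertoli genes rose, beside 33.2% of all genes, including Inha (4.47 ± 0.85), Clu (2.86 ± 0.67) and Nr5a1 (2.48 ± 0.4). In spermatogonia against E17.5 males 9 of 9 were lower, as Kitl was, beside 11.1% of all genes. The Cst9 and Ptgds differences lost their calls there in 8 and 6 of 14 alternatives. The part of Sertoli RNA in the Kitl differences was not tested.

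**Figure D4:**
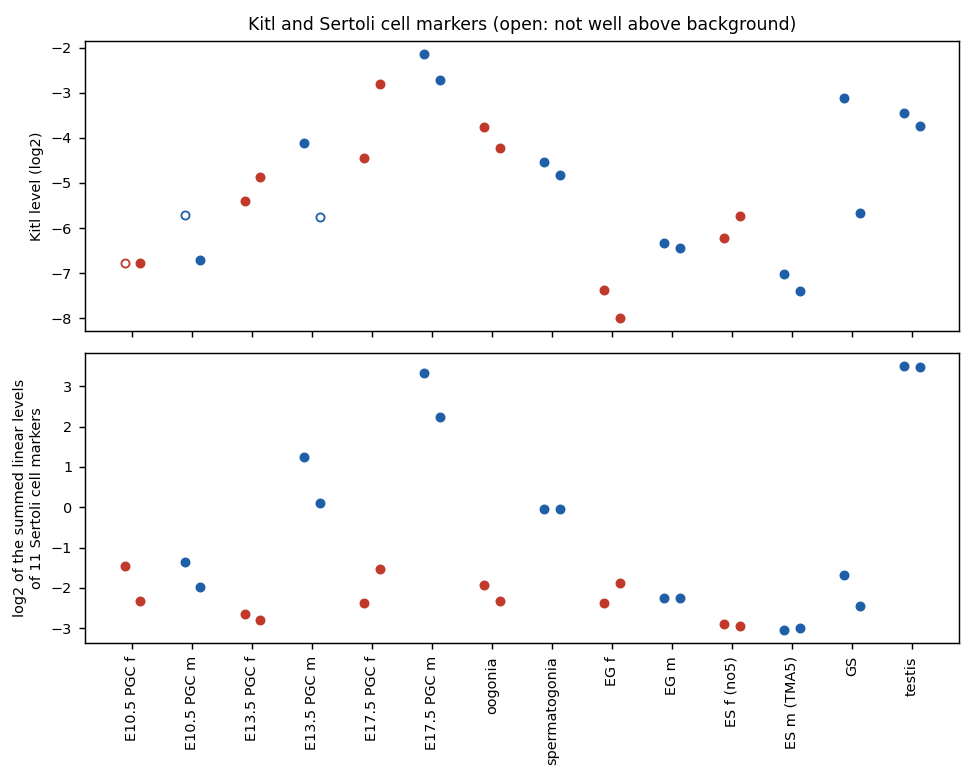
Kitl level (log2, upper panel) and log2 of the summed linear levels of 11 Sertoli genes (lower panel) on each array of the 14 groups (horizontal axis), with replicate 1 left and replicate 2 right, females red, males blue, and open points not well above background. The E17.5 male arrays (Sertoli sums 3.32 and 2.25) and testis arrays (3.5 and 3.47) are high in both panels, while GS replicate 1 has Kitl at -3.11 with a Sertoli sum of -1.67.

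In females, genes of granulosa cells, the ovarian source of the ligand, were dim. Of 9 measured granulosa genes 2 were well above background on both E17.5 female arrays, and the defining gene Foxl2 rose above background nowhere in the series. On E17.5 female replicate 1 their sum was -2.91, with 2 genes well above background and Kitl at -4.44. Replicate 2 had a sum of -2.13, with 4 genes well above background and Kitl at -2.81. The part of granulosa RNA in the female Kitl level was not tested. GS cells were a further case. GS replicate 1, with Kitl at -3.11, had a summed level of 11 fibroblast and mesenchyme genes of 5.3, and replicate 2, with Kitl at -5.67, had 2.88. Female ES cells had sums of 2.53 and 2.1 and male EG cells 1.86 and 2.18, near GS replicate 2, with Kitl between -5.74 and -6.44, and the PGC, oogonia, spermatogonia and testis arrays lay between -1.82 and 1.21. The part of such cells in the GS value was not tested.

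Mast cells, which are known to carry KIT, were looked for through their markers in oogonia. Of 8 measured mast cell genes 4 were well above background on both oogonia arrays and 4 on neither, and their summed level was -3.19 on replicate 1 and -0.3 on replicate 2. The sum was -2.96 to -1.55 on the E13.5 and E17.5 PGC arrays and -4.04 to -1.66 on the E10.5 PGC arrays. GS cells, where Kit was low, had -1.46 and -0.29. The mast cell protease gene Cpa3 read -5.3 and -2.48 on the oogonia arrays and was well above background on at most 1 array of any PGC group. Kit in oogonia read 1.38 on the replicate with the lower mast cell sum and 1.64 on the other. The part of mast cells in the Kit level of oogonia was not tested. Whole testis, where Kit was low, held spermatid genes at a summed level of 5.42 to 5.48 against -2.46 to -2.32 in spermatogonia. The part of spermatid RNA in the testis Kit level was not tested.

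All 4 genes had more than 1 probe, and the other probes followed the kept one over the 28 arrays with correlations of 0.91 and 0.94 for Kit, 0.98 and 0.97 for Kitl, 0.99 for Ifitm1, and 0.99 and 0.95 for Alpl, which share arrays and hence scaling. All 3 Kit probes placed E17.5 males below females (-3.22, -3.34 and -3.07) and spermatogonia below oogonia (-4.91, -3.11 and -3.27), each called. They disagreed on oogonia. Relative to E17.5 females the kept probe was 1.89 higher, whereas the other Kit probes gave -0.39 ± 0.62 (adjusted p = 0.702) and -0.17 ± 0.54 (adjusted p = 0.856). Their levels in oogonia were -1.43 and -1.67 for the second and -1.35 and -1.49 for the third, and in E17.5 females -1.66 and -0.66 for the second and -1.58 and -0.92 for the third. With the mean of all Kit probes the difference was 0.45 (adjusted p = 0.502). Nor did the other probes call the lower Kit of testis against spermatogonia (-0.46 ± 0.64, adjusted p = 0.609; -0.72 ± 0.55, adjusted p = 0.321), while both called it against GS cells (1.67 ± 0.64, adjusted p = 0.0411; 1.77 ± 0.55, adjusted p = 0.0148).

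**Figure D5:**
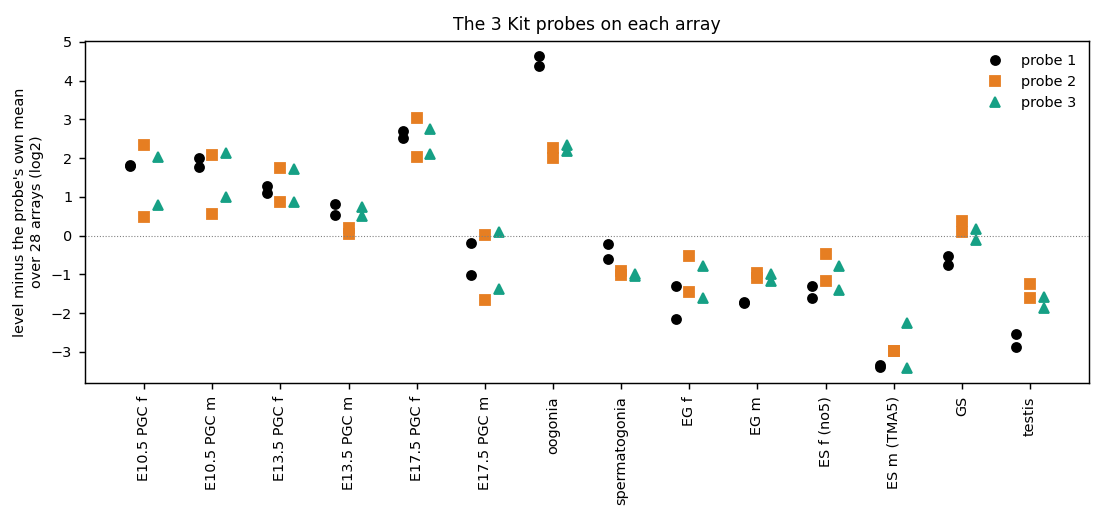
Level of each of the 3 Kit probes minus that probe's own mean over the 28 arrays (log2, vertical axis) in the 14 groups (horizontal axis), with 1 symbol per array and probe 1 the kept probe. In oogonia probe 1 stands above every other group, while probes 2 and 3 lie there close to the E17.5 female arrays; all 3 probes drop from E17.5 females to E17.5 males.

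For the Kit changes from E13.5 to E17.5 the other probes pointed the same way without passing, at 1.22 ± 0.61 (adjusted p = 0.129) and 1.13 ± 0.53 (adjusted p = 0.103) in females and -0.93 ± 0.62 (adjusted p = 0.229) and -1.27 ± 0.53 (adjusted p = 0.0622) in males. From E10.5 to E13.5 the male Kit change was -1.2 ± 0.61 (adjusted p = 0.161) and -0.94 ± 0.52 (adjusted p = 0.206) with the other Kit probes, and the female Alpl change -0.57 ± 0.22 (adjusted p = 0.0591) and 0.01 ± 0.58 (adjusted p = 0.992) with the other Alpl probes. The male Kitl rise from E13.5 to E17.5 was called by all 3 of its probes (2.14 ± 0.77, adjusted p = 0.0313, and 2.63 ± 0.82, adjusted p = 0.0161, for the others), while the lower Kitl of spermatogonia was called by the kept probe alone (-2.09 ± 0.77, adjusted p = 0.0651, and -1.63 ± 0.83, adjusted p = 0.179, for the others). From E13.5 to E17.5 both remaining Alpl probes fell in females too, with differences of -5.43 ± 0.22 (adjusted p = 1.06e-10) and -5.9 ± 0.58 (adjusted p = 9.65e-07), and neither called the male change (-0.41 ± 0.22, adjusted p = 0.142; 0.12 ± 0.59, adjusted p = 0.881). The probe with -5.9 was well above background on neither E17.5 female array, so the size of its fall is uncertain. The second Alpl probe was also lower in oogonia than in E17.5 females (-1.05 ± 0.23, adjusted p = 0.00446). For Ifitm1 the second probe fell, with differences of -4.51 ± 0.36 in females (adjusted p = 8.56e-08) and -5.56 ± 0.36 in males (adjusted p = 3.09e-08). It did not call the difference between those falls (-1.05 ± 0.51, adjusted p = 0.134), and it was higher in spermatogonia than in oogonia (1.87 ± 0.36, adjusted p = 0.000482).

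Relatives of the members showed how far their changes were shared. Among 5 measured IFITM genes, Ifitm1 included, 4 were tested from E13.5 to E17.5. Their median was -2.18 in females and -1.58 in males, against 0.11 and 0.5 over all genes. In each sex 3 of the 4 fell, beside 17.5% of all genes in females and 14.9% in males. Besides Ifitm1 these were Ifitm2, at -2.33 ± 0.58 in females (adjusted p = 0.0045) and -1.57 ± 0.59 in males (adjusted p = 0.0377), and Ifitm3, the Fragilis gene itself, at -2.03 ± 0.58 (adjusted p = 0.0108) and -1.59 ± 0.59 (adjusted p = 0.0352). The male calls of both, and the female call of Ifitm3, were lost on leaving out single arrays, with Ifitm2 between -1.95 and -1.19 and Ifitm3 between -1.94 and -1.25 in males and between -2.2 and -1.87 in females. Ifitm3, unlike Ifitm1, also fell in males from E10.5 to E13.5 (-1.7 ± 0.57, adjusted p = 0.0364, and -2.14 to -1.25 with single arrays left out, 3 of which ended the call), and the difference between both genes was not tested. In GS cells against spermatogonia 3 of 4 were higher, Ifitm1 among them, beside 12% of all genes. Ifitm3 was higher by 2.75 ± 0.6 (adjusted p = 0.00324) and Ifitm2 by 1.99 ± 0.6 (adjusted p = 0.0228). With single arrays left out the Ifitm2 difference ran from 0.47 to 3.5, and 3 of these fits ended its call.

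Of the 3 measured alkaline phosphatase genes only Alpl was well above background on every PGC array. Akp3, an intestinal-type alkaline phosphatase, was well above background on 1 E13.5 male array and Alppl2, the embryonic-type enzyme, on none of the PGC arrays, while both were well above background in testis. Of 10 measured genes of alkaline phosphatases and their substrates, Alpl included, 6 were tested from E13.5 to E17.5 in females, where 1 rose and 2 fell, and 6 in males, where 2 rose and 2 fell. Of all genes 22.7% rose and 17.5% fell in females, and 33.2% rose and 14.9% fell in males. Slc20a1, a phosphate transporter, rose by 2.63 ± 0.18 in females (adjusted p = 1.9e-08). Enpp1, which makes pyrophosphate, rose by 4.1 ± 0.73 in males (adjusted p = 0.00028).

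Downstream of the receptor, 44 of 56 listed KIT pathway genes were measured. Over E13.5 to E17.5, 5 of 33 tested rose and 8 fell in females, beside 22.7% and 17.5% of all genes. In males 8 of 36 rose and 5 fell, beside 33.2% and 14.9% of all genes. The pathway medians were -0.03 in females and 0.47 in males, against 0.11 and 0.5 over all genes. Tec, a cytoplasmic tyrosine kinase bound by KIT, fell by 3.51 ± 0.23 in females (adjusted p = 1.12e-08), while the transcription factor Stat3 rose by 2.63 ± 0.29 (adjusted p = 3.19e-06) and the phosphatase gene Ptpn11 by 1.64 ± 0.23 (adjusted p = 3.89e-05). In males the imprinted adaptor Grb10 rose by 5.9 ± 0.65 (adjusted p = 3.23e-06) and Stat5a at least 7.64-fold (adjusted p = 0.000458), a call that normexp ended. Tec and Grb10 also differed between the sexes in their change, by 5.12 ± 0.33 (adjusted p = 3.77e-08) and 5.11 ± 0.92 (adjusted p = 0.000511). In EG cells against E13.5 PGC 8 of 43 pathway genes were higher and 17 lower, beside 18.5% and 24.7% of all genes. The pathway median was -0.47 against -0.19 over all genes. Socs3 (2.87 ± 0.57) and Gab1 (2.79 ± 0.46) were higher and Sh2b2 (-3.1 ± 0.83) lower, and the common floor ended the calls of Gab1 and Sh2b2. In ES cells against E10.5 PGC 8 of 43 were higher and 13 lower, beside 16.1% and 23.5% of all genes. Among the lower were Tec at -3.12 ± 0.17 and the kinase gene Akt1 at -2.89 ± 0.23.

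Of 18 listed regulators of Kit or of germ cell fate 16 were measured, and from E13.5 to E17.5 none of 9 tested rose and 4 fell in females, while 1 of 11 rose and 5 fell in males. Their medians were -1.03 and -0.29 against 0.11 and 0.5 over all genes, of which 22.7% rose and 17.5% fell in females and 33.2% rose and 14.9% fell in males. Among those that fell in females were Tfap2c, a transcription factor of PGC specification, at -6.85 ± 0.46 (adjusted p = 1.56e-08), Myb at -3.86 ± 0.38 and Gata2 at -3.83 ± 0.55 (adjusted p = 4.61e-05). In males Nanos2, the RNA-binding factor of fetal male germ cells, fell by 5.52 ± 1.01 (adjusted p = 0.000342), Etv5 fell at least 4.8-fold, and Gata2 rose by 2.62 ± 0.56 (adjusted p = 0.00127); the male Etv5 and Gata2 calls were lost with normexp background correction and with the common floor. Adam17, a protease that can shed KIT ligand and KIT, fell by 0.76 ± 0.2 in males (adjusted p = 0.00601), but the mean of all its probes gave 0.69 in place of a fall. Zbtb16, a repressor of Kit in spermatogonial stem cells, was well above background in GS cells, testis and on 1 female ES array. Of 10 measured genes of the receptor's family and their ligands, Pdgfra rose by 3.63 ± 1.1 (adjusted p = 0.013) and its ligand Pdgfa by 1.25 ± 0.32 (adjusted p = 0.00512) in E17.5 males, and Pdgfa fell by 1.63 ± 0.32 (adjusted p = 0.000778) in E17.5 females; the male calls of both were lost on leaving out single arrays, Pdgfra at 2.67 to 4.59 and Pdgfa at 0.67 to 1.82. Alpi, Csf1r, Flt3, Sohlh1, Ifitm6 and Ifitm7 were not analysed here.

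Across the 14 group means Ifitm1 and Alpl ran together with a Pearson correlation of 0.82, and Kitl ran opposite to both, at -0.74 with Ifitm1 and -0.71 with Alpl. Kit correlated with Kitl at 0.28, with Ifitm1 at -0.06 and with Alpl at -0.42. Groups that share a strain, slide or culture are not independent points, so these are descriptions. Among 10478 named genes whose group means spanned at least 2 log2 units, those most like Kit were Tsg101 (0.95), Gabpb1 (0.93), Mcm8, Ep300 and Adamdec1 (0.92 each). All but Mcm8 were highest in oogonia, where the kept Kit probe, used here, averaged 1.51 and the other Kit probes -1.55 and -1.42. Those most like Kitl were Aldh1a1 and Tmem25 (0.94 each), Stk36 and Tgfbrap1 (0.93 each) and Zer1 (0.92), of which all but Zer1 were, like Kitl, highest in E17.5 males. Ifitm1 was most like Adam19 and Ccnf (0.93 each), H2ac11, Rack1 and Pml (0.92 each). The genes most like Alpl included Mcm7, St6galnac4, Castor1 and Esrrb (0.95 each), of which Esrrb, a transcription factor of naive pluripotency, was highest in female EG cells and lowest in E17.5 females.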

How the data were processed

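The members and gene lists were chosen with earlier results of these data known. Per the file headers, the authors quantified each single-colour array with Agilent Feature Extraction 10.5.1.1, a version also found in the submitters' processing notes, and deposited a processed intensity per spot on a linear scale, already background-adjusted by that software. Per the labels' protocols, 50 ng of total RNA was labelled by linear amplification. The table deposited by the authors holds log2 values. Compared with the scanner files, every column was log2 of the processed intensity minus a constant, equal to within 2.53e-06 after centring, with column medians of 0.00178 to 0.0372. The sources used here do not give the choice of that constant.

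In R 4.3.3 the 1417 control spots and 514 of 43803 probes that were marked non-uniform on any array were removed. No spot was saturated. From log2 intensity the 75th percentile of the 7227 probes well above background on all 28 arrays was subtracted. Of the 43289 probes 16584 matched 13014 RefSeq symbols (GRCm38.p6) and 26705 did not, and 62 had an accession that differs between array designs. Where a feature had several probes (3617 features), that of highest mean level stood for it. Tests were limited to genes whose kept probe stood well above background on both arrays of 1 or more of the groups compared. limma 3.58.1 (lmFit and eBayes) fitted 1 mean per group to all 28 arrays, with 14 residual degrees of freedom, and Benjamini-Hochberg adjusted p under 0.05 was called. Bounds ("at least N-fold") set the bright mean against the higher, per array, of the lowest signal well above background and the dim probe's own. Signal over background, not depth, limits precision.

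The 28 arrays lay on 9 slides and 6 scan days. Same-numbered arrays of different PGC groups deviated together in all 15 pairs of groups (correlations 0.3 to 0.8, median 0.45, over 6214 genes), and their number is also their scan day, so the replicate block and the scan-day block are the same fit. The normexp alternative (offset 50) used the median signal, since the files hold no mean signal, and takes dim signal partly for background. The other alternatives were quantile normalization, the percentile over all probes, the deposited table, no filter and a stricter filter on dim probes, the mean of all probes, a common floor, the compared groups alone, slide as a block or as a random block, and each array left out in turn. Named genes are the 4 members, chosen relatives, and at most the 3 called members of a list with the largest difference in a comparison. The genes most like a member are the 5 with the highest Pearson correlation over the 14 group means. Some named genes are not reported here. Scripts were tested on simulated data.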

Additional observations from a re-analysis of the deposited data

Results flagged for a closer look

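Stage effects that differed between the sexes, by a test of the difference itself, were found for 3 of the 4 genes between E13.5 and E17.5. The share called over all genes tested was 32.4%. The male change minus the female change was -2.71 ± 0.4 log2 units for Kit (SE, limma, adjusted p = 9.04e-05), since Kit rose in females and fell in males. For Alpl it was 4.14 ± 0.31 (adjusted p = 1.35e-07), since the female fall was much the larger. For Ifitm1 it was -1.54 ± 0.53 (adjusted p = 0.0361), with a fall in both sexes that went further in males, and this call was lost in 13 of 20 alternatives. Groups of 2 arrays are too small for a test of single arrays that stand apart.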

How the results depend on the processing

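Of the 33 called member results, 26 kept direction and call with normexp background correction, 30 with quantile normalization, 31 with the all-probe percentile, 14 in the deposited values, 25 without a filter, 31 of 31 with the stricter filter, 26 with the mean of all probes, 29 with the common floor, 24 in a fit on the compared groups alone, 26 with slide as a random block, 10 of 16 with slide as a block and 13 of 16 with the replicate block; 141 of 172 fits that left out 1 array kept them. The cause of each change was not tested. The replicate block changed no call of a member other than those given beside the results.

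Counts of members called moved as follows. In females from E10.5 to E13.5 (1 called) the count was 2 with quantile normalization or slide as a random block, 3 with the common floor or the all-probe percentile, and 0 in the deposited values, without a filter, with the mean of all probes and with slide as a block. In males over that step (2 called) it was 0 in the deposited values and on the compared groups alone, and 1 without a filter and with the mean of all probes. In males from E13.5 to E17.5 (4 called) it was 2 with normexp and 1 in the deposited values, on the compared groups alone and with slide as a block. Between the sexes at E13.5 (1 called) it was 3 with the common floor, 2 with slide as a random block, and 0 with normexp, deposited values, no filter, the compared groups alone, slide as a block and the replicate block. In the sex-by-stage test to E17.5 (3 called) it was 1 in the deposited values. In oogonia (2 called) it was 0 in the deposited values and 1 with quantile normalization, the all-probe percentile, no filter, the common floor, the compared groups alone and slide as a random block. In spermatogonia against E17.5 males (2 called) it was 0 with normexp, deposited values, no filter and slide as a random block, and 1 with quantile normalization, the all-probe percentile and the mean of all probes. Against oogonia (2 called) it was 1 in the deposited values. In EG cells against E13.5 PGC (3 called) it was 1 in the deposited values and with slide as a random block, and for EG against ES cells (1 called) it was 0 in both and 2 with the stricter filter. In testis against spermatogonia (1 called) it was 3 with normexp, quantile normalization and the all-probe percentile, 2 with the mean of all probes and 4 on the compared groups alone. On leaving out 1 array the counts ran from 0 to 2 and from 1 to 2 for E10.5 to E13.5 in females and males, from 2 to 3 for E13.5 to E17.5 in males, at 0 for the sexes at E13.5 and for spermatogonia against E17.5 males, from 1 to 2 for oogonia, and from 1 to 2 for EG against ES cells.

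Signs turned for differences that were not called, and for Alpl in ES cells and Adam17. From E10.5 to E13.5, female Kitl was -0.25 with normexp, and male Ifitm1 was -0.22 with the all-probe percentile, -0.23 with slide as a block and -0.14 with slide as a random block. From E13.5 to E17.5 male Adam17 was 0.69 with the mean of all probes. Between the sexes at E10.5, Ifitm1 was -0.15 with normexp, -0.05 with the all-probe percentile and -0.49 in the deposited values, and Kit was -0.07 and -0.51 in the last 2. At E13.5 Kitl was -0.49 with quantile normalization and -0.86 in the deposited values, where Ifitm1 was -0.08. In the sex-by-stage test to E13.5 Kitl was 0.08 with normexp. In oogonia against E17.5 females, Kitl and Alpl were 0.07 and 0.32 with quantile normalization, 0.16 and 0.26 with the all-probe percentile and 0.43 and 0.53 in the deposited values. In spermatogonia against E17.5 males, Kit was -0.04 with normexp, -0.11 with the mean of all probes and -0.01 with the common floor, and Ifitm1 was 0.17, 0.12, 0.22 and 0.12 with quantile normalization, the all-probe percentile, deposited values and the mean of all probes. Against oogonia Kitl was 0.04 with normexp, and Ifitm1 was -0.04 with quantile normalization and -0.54 in the deposited values. In EG cells Ifitm1 was 0.29 in the deposited values. In ES cells Kitl was 1.25 with quantile normalization, 0.91 in the deposited values and 0.06 with slide as a random block, and Alpl was 0.16 in the deposited values. In GS cells against spermatogonia, Kitl was -0.81 with normexp, Alpl 0.12 in the deposited values and Kit 0.68 with the mean of all probes. Kitl was -0.11 with normexp in testis against spermatogonia and 0.16 with the common floor in GS cells against testis. With 1 array left out, ranges that crossed 0 were -0.29 to 0.32 for male Ifitm1 from E10.5 to E13.5; -0.06 to 0.19 (Kit) and -0.37 to 0.53 (Ifitm1) for the sexes at E10.5; -0.64 to 1.01 for Kitl between the sexes at E13.5 and -1.2 to 0.44 in the sex-by-stage test to E13.5; -1.19 to 0.43 (Kitl) and -0.6 to 0.05 (Alpl) in oogonia; -0.21 to 0.61 (Kit) and -0.42 to 0.22 (Ifitm1) in spermatogonia against E17.5 males; -0.34 to 0.14 for Kitl in ES cells; -0.98 to 1.57 (Kitl) and -0.19 to 0.16 (Alpl) in GS cells against spermatogonia; and -2.08 to 0.47 for Kitl in GS cells against testis.

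Over all genes the number called ranged over the settings for the sexes at E10.5 (4, with 0 to 13), the sex-by-stage test to E13.5 (927, with 0 to 2476), EG against ES cells (1639, with 0 to 5988), spermatogonia against E17.5 males (3250, with 157 to 4955), E10.5 to E13.5 in females (4761, with 1231 to 5811) and in males (2811, with 201 to 3814), the sexes at E13.5 (2680, with 551 to 4231), and oogonia (3841, with 320 to 3923). It ran from 1613 to 6799 (5763) and 2808 to 9007 (7498) from E13.5 to E17.5 in females and males, 4106 to 10473 (8836) between the sexes at E17.5, 1718 to 7531 (5457) in the sex-by-stage test to E17.5, 4749 to 12048 (9508) for spermatogonia against oogonia, 3542 to 24487 (9540) for EG cells, 1889 to 24951 (8594) for ES cells, 1021 to 17230 (6639) for GS against spermatogonia, 7057 to 21357 (12918) for testis against spermatogonia and 8166 to 17284 (14326) for GS against testis. Scaling (normexp, quantile normalization, the all-probe percentile or the deposited centring) moved the median of all genes, for example in ES cells against E10.5 PGC from -0.3 to between -2.03 and 0.71, and it moved the share of higher ones among called genes. That share was 56.5% (35.6% to 59.4%) from E13.5 to E17.5 in females, 69.1% (46% to 87.5%) in males, 58.6% (47% to 61.1%) between the sexes at E17.5, 43.5% (34.2% to 64.3%) for spermatogonia against E17.5 males, 42.9% (10.3% to 78.3%) for EG cells, 40.6% (6.41% to 89.7%) for ES cells and 47.1% (8.53% to 48.4%) for GS cells against spermatogonia.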
